A study of Homo sapiens with 26 samples.

Results

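Interleukins and their receptors were examined as targets of the glucocorticoid receptor (GR), using 42 GR binding regions linked to 28 of these genes out of 10740 regions in all. A region was taken when the gene start nearest to its midpoint, among protein-coding genes of GENCODE 44 on the human build hg38, lay within 100 kb and belonged to a gene named IL followed by a digit. Of all regions, 7574 had a protein-coding gene start within that distance. The 2 regions nearest to IL6 were left out by the same rule. Ligands or ligand subunits were encoded by 13 of the genes and receptor chains by 15. One region was linked to each of 20 genes, and at most 5 to a single gene, IL6ST.

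The regions were measured by chromatin immunoprecipitation with sequencing (ChIP-seq) in A549, an established cell line from a human lung carcinoma that is used as a model of airway and alveolar epithelium. All cells carried an adenovirus, either Ad-GFP, which expresses green fluorescent protein and served as control, or Ad-IκBαΔN, which expresses a form of IκBα that blocks the transcription factor NF-κB. Cells of each virus were not stimulated (NS), treated with 300 nM budesonide, a synthetic glucocorticoid (Bud), or treated with 1 ng/ml interleukin-1β and budesonide together (IL1B+Bud), in each case for 1 h, and chromatin was recovered with an antibody to GR. Each of the 6 groups had 2 libraries, labelled as replicates 1 and 2, but the table holds 1 value per region and group. Libraries made with an antibody to RELA, and input libraries, were not used here. There was thus no replicate spread to set against any difference, no test was possible, and every difference below describes these pooled values.

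Interleukins are secreted signalling proteins that act through receptor chains on the cell surface. IL1A and IL1B bind IL1R1, which signals through MYD88 and IRAK kinases to NF-κB, while IL1R2 binds IL1 without signalling and acts as a decoy. Interleukins of the IL6 family signal through the shared chain gp130, encoded by IL6ST. IL2 and IL15 signal through receptors that contain IL2RB. Both routes run by way of JAK kinases and STAT factors. Glucocorticoids are known to lower the output of many inflammatory interleukins, and GR acts as a ligand-dependent transcription factor at glucocorticoid response elements (GRE) and together with other factors. Airway epithelial cells respond to IL1 with NF-κB activation and also make several interleukins themselves.

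Reference sequences of 9 of the regions, read from hg38 on the plus strand, show the letters under the signals described here. They cover the 3 genes whose lead region had the largest log2 difference for added IL1B in Ad-GFP (IL1B, IL20RB and IL22RA1), the 2 with the lowest (IL1R1 and IL19), the gene with the largest log2 difference for Bud in Ad-GFP (IL15) and the 3 regions within 1 kb of a gene start (IL1R1, IL32 and IL6ST). The lead region of a gene is its region with the highest mean over the 6 groups. The central 200 bases of each region of 400 bases are printed, or 30 bases around a motif where untranslated sequence of a transcript overlaps. Capitals mark matches to a GRE (AGAACA, 3 bases of any kind, TGTTCT, with at most 2 mismatches in the 12 fixed bases), to the NF-κB (κB) motif, or to the AP-1 motif (TGACTCA or TGAGTCA), each searched on both strands.
IL1B region 24.7 kb from its start, chr2:112812008-112812207: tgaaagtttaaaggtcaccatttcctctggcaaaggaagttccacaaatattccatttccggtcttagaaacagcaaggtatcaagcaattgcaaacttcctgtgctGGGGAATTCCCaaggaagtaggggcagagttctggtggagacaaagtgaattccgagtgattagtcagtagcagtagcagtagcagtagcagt
IL20RB region 13.5 kb from its start, chr3:136932600-136932799: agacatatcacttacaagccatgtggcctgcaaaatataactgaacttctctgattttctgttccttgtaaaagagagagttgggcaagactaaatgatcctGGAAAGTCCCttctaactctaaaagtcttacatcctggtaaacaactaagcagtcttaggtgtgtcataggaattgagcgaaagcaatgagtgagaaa
IL22RA1 region 12.0 kb from its start, chr1:24155055-24155084: gtacaggtctGGGAATTTCCCtgggagctg
IL1R1 region 15.9 kb from its start, chr2:102048552-102048751: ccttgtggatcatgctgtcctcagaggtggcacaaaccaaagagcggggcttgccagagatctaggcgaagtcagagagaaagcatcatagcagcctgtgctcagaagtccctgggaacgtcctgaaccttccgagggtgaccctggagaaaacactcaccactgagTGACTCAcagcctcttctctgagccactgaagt
IL19 region 21.9 kb from its start, chr1:206748767-206748966: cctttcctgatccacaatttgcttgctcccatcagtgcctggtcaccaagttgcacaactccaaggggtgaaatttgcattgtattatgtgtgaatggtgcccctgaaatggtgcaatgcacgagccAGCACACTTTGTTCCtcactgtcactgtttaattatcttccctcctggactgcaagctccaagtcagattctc
IL15 region 70.9 kb from its start, chr4:141565594-141565793: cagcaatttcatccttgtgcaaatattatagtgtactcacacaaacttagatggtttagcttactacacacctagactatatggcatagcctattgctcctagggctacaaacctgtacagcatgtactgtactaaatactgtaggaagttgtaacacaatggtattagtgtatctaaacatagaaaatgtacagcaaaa
IL1R1 region at its start, chr2:102064209-102064408: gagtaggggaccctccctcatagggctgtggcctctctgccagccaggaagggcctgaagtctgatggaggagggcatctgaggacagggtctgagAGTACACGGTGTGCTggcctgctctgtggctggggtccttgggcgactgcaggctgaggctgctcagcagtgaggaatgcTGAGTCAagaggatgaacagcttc
IL32 region at its start, chr16:3065294-3065323: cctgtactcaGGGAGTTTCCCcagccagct
IL6ST region at its start, chr5:55995119-55995318: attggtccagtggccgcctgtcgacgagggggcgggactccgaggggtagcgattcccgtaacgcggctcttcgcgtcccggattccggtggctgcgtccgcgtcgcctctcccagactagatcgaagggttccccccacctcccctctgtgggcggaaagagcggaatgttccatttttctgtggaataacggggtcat

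In these letters, the capitals in the regions of IL1B, IL20RB, IL22RA1 and IL32 are κB matches. The capitals in IL19 are a GRE match with 2 mismatches. In the distal region of IL1R1 they are an AP-1 match, and at the IL1R1 start they are a GRE match with 2 mismatches followed by an AP-1 match. The windows of IL15 and IL6ST hold no match, although an AP-1 match lies in the IL15 region outside the printed bases. Overlapping κB matches appear as 1 run.

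The deposited value is a log2 binding intensity, read here as log2(signal + 1), where signal is a mean coverage per base. Below, signals are linear, and differences are of the log2 values, where the added 1 makes differences of weak regions smaller. A region is called higher or lower when the log2 difference is at least 1 in size, which is 2-fold. Over all regions, the median signal was 7.58 and 7.79 in untreated cells of Ad-GFP and Ad-IκBαΔN, 21.7 and 21.6 with Bud, and 45.7 and 23.6 with IL1B+Bud. Where 3 signals follow each other, they stand for NS, Bud and IL1B+Bud in that order. The scale of the groups is uncertain. Values of Ad-GFP cells with IL1B+Bud lay on steps of 3 and those of Ad-IκBαΔN cells with IL1B+Bud on steps of 1.5, against steps of 1 in 3 other groups and no clear step in untreated Ad-IκBαΔN cells. Dividing the steps out shifts the all-region median of the step from Bud to IL1B+Bud in Ad-GFP from 0.92 to -0.61, so the position of a region relative to all regions is firmer than its distance from 0.

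Across the 42 regions, budesonide alone in Ad-GFP cells gave a signal at least 2-fold higher than untreated at 20 regions and 2-fold lower at 7, against 57.9% and 8.14% of all regions. The median log2 difference was 0.80, below the all-region median of 1.37. Centred on the regions the authors call unchanged, the counts were 8 and 21, against 14.4% and 40.7% of all regions. With IL1B added to Bud in Ad-GFP, 24 regions were 2-fold higher and 2 lower, against 48.9% and 6.07% of all regions. The median was 1.71, and 0.92 over all regions. With the steps divided out the counts were 14 and 14, against 30.3% and 43.7% of all regions. Few regions, of the 42 as of all regions, were 2-fold higher both with Bud and again with added IL1B. In Ad-GFP, 17 were higher only with Bud against NS, 21 only with added IL1B, 3 in both steps and 1 in neither. In that order the shares were 40.5%, 50%, 7.14% and 2.38%, against 47.7%, 38.8%, 10.1% and 3.36% of all regions. These comparisons share the Ad-GFP Bud group, and a low value there lowers the first difference and raises the second. IL1B+Bud against NS, which does not use that group, was at least 2-fold higher at 40 of the 42 regions, against 93.7% of all regions. With the steps divided out it was so at 19, against 48.7%. In Ad-IκBαΔN the same comparison gave 23 higher and 0 lower, against 69.1% and 0.0466%, and was not recomputed under other scalings.

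**Figure D1:**
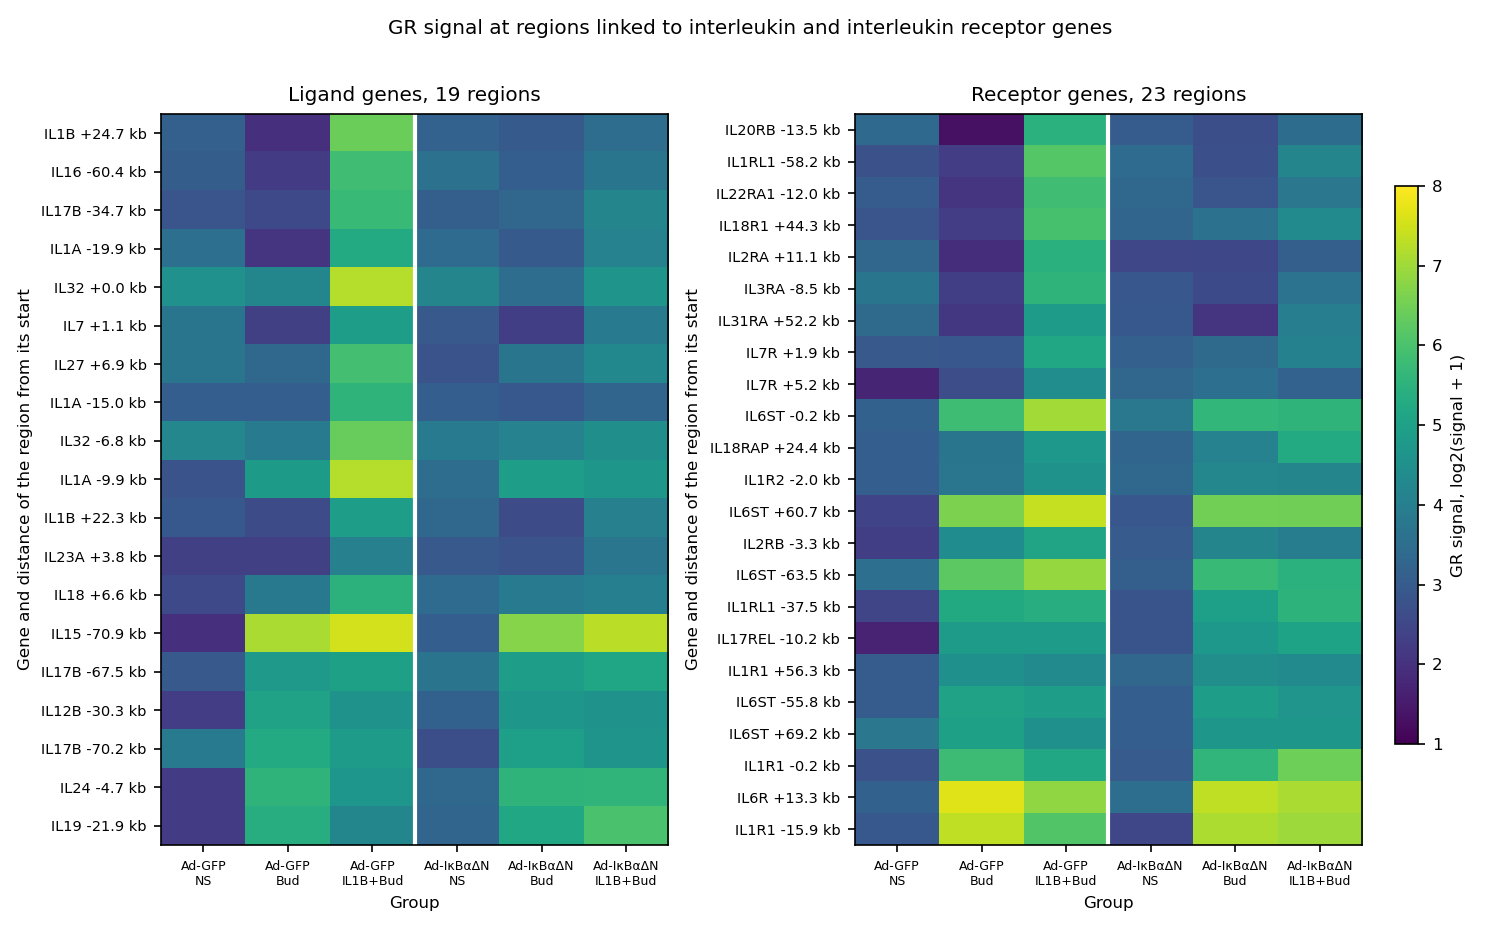
GR signal as log2(signal + 1) at the 19 regions of ligand genes (left) and the 23 of receptor genes (right) in the 6 groups, each row a region with its distance from the gene start (minus is upstream) and rows ordered by the difference between IL1B+Bud and Bud in Ad-GFP. Upper rows are dark with Bud and bright with IL1B+Bud in Ad-GFP but not in Ad-IκBαΔN, while rows such as IL15, IL6R and IL1R1 are bright with Bud in both viruses.

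The genes of the IL1 ligands held 5 regions within 20.5 kb of chromosome 2, all in the intergenic stretch between IL1A and IL1B (the gene bodies lie at 112773925 to 112784493 and at 112829751 to 112836816, both on the minus strand). IL1B encodes the same cytokine that was added to the cells. At its lead region (112811908 to 112812307), 24.7 kb from the IL1B start, the Ad-GFP signal was 7.92 untreated, 2.90 with Bud and 84.7 with IL1B+Bud. In Ad-IκBαΔN the signals there were 8.21, 6.84 and 10.3. Ad-GFP cells given IL1B+Bud thus stood above all 5 other groups. The log2 difference for added IL1B was 4.46 in Ad-GFP, the largest of all 42 regions as deposited and past 2-fold under each scaling tried, and 0.52 in Ad-IκBαΔN, where it turned to -0.13 at its lowest. The fold rests on a low Bud signal, and against untreated Ad-GFP cells the difference was 3.27. The other region linked to IL1B, 22.3 kb from its start, had 5.14 with Bud and 29.2 with IL1B+Bud in Ad-GFP, against 5.22 and 15.5 in Ad-IκBαΔN. That region was among the few with a sizeable difference in both viruses, 2.30 and 1.41.

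The lead region of IL1A, 9.92 kb upstream of its start (112794211 to 112794610), was one of the 3 regions that were higher in both steps in Ad-GFP. Its signals were 5.90 untreated, 26.9 with Bud and 149 with IL1B+Bud. In Ad-IκBαΔN they were 10.3, 28.9 and 25.0. Both viruses had a nearly equal signal with Bud, and only Ad-GFP stood higher with added IL1B, by a log2 difference of 2.43 against -0.20. This contrast kept its signs under the scalings tried, with 0.86 at the lowest in Ad-GFP and a range of -0.76 to -0.18 in Ad-IκBαΔN. The other IL1A regions, 15.0 kb and 19.9 kb upstream, had 7.48 and 3.26 with Bud and 46.0 and 37.8 with IL1B+Bud in Ad-GFP. In Ad-IκBαΔN they reached 8.74 and 16.3 with IL1B+Bud.

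**Figure D2:**
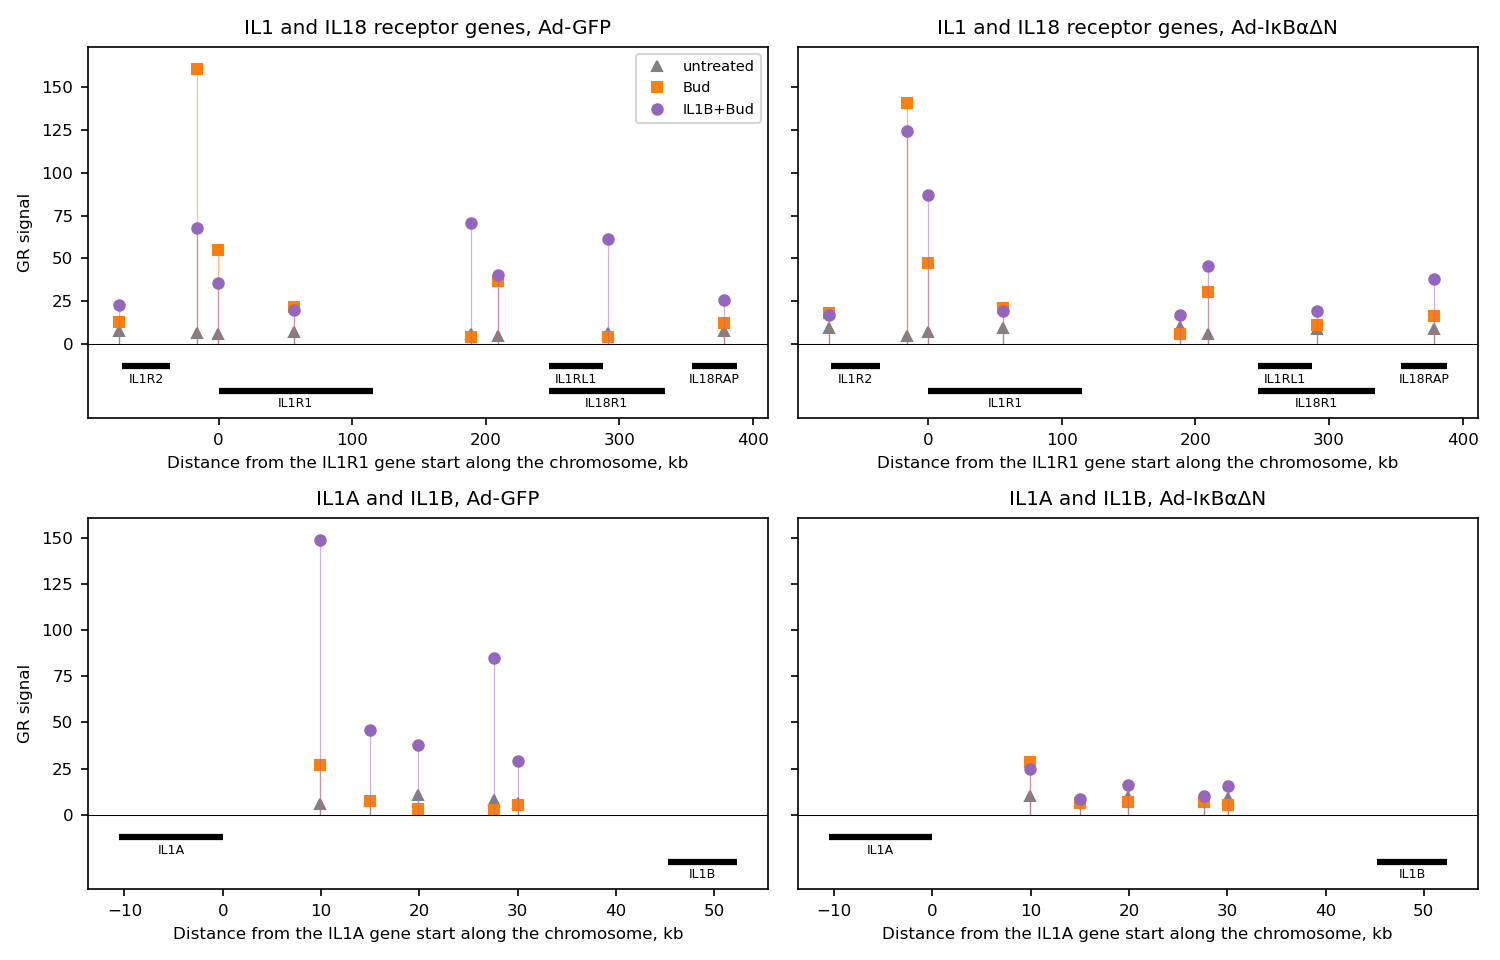
GR signal (linear scale) at regions of the IL1 and IL18 receptor genes (top) and of IL1A and IL1B (bottom) in Ad-GFP (left) and Ad-IκBαΔN (right), by distance in kb from the start of IL1R1 or IL1A, with black bars for gene bodies and 1 point per region and treatment. Near IL1R1 the tallest points are Bud (161 and 141), whereas between IL1A and IL1B the tallest are IL1B+Bud in Ad-GFP (149 and 84.7).

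IL32 encodes an inflammatory protein that is induced by IL1 and other cytokines in epithelial cells. Its lead region covered the gene start (chromosome 16, 3065121 to 3065520, in untranslated sequence of IL32), where the Ad-GFP signal was 22.5 untreated, 17.4 with Bud and 147 with IL1B+Bud. The Ad-IκBαΔN signals were 17.1, 10.3 and 23.5. It had the highest untreated signal of the 42 regions in both viruses, and IL1B+Bud in Ad-GFP stood far above the rest. Added IL1B made a log2 difference of 3.01 in Ad-GFP, 1.44 at its lowest under the scalings, and of 1.11 in Ad-IκBαΔN, 0.56 at its lowest. A neighbouring region 6.82 kb upstream, in untranslated sequence of MMP25, showed 14.1 with Bud and 81.8 with IL1B+Bud in Ad-GFP, against 16.1 and 21.2 in Ad-IκBαΔN.

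Several other ligand genes shared the pattern of a low signal with Bud and a higher one with IL1B+Bud in Ad-GFP. IL16 encodes a chemoattractant that binds CD4, and its region, in an intron of CFAP161 60.4 kb upstream of the IL16 start, had signals of 7.36, 3.72 and 56.9 for NS, Bud and IL1B+Bud in Ad-GFP, against 11.3, 7.48 and 12.3 in Ad-IκBαΔN. An intron of IL27, which encodes the p28 subunit of that cytokine, had 12.3, 9.04 and 59.4 against 5.92, 12.1 and 18.3. IL7, a growth factor of lymphocytes, had an intronic region with 12.2, 4.03 and 29.4 against 6.73, 3.92 and 13.4. The IL7 region was 2-fold higher with added IL1B in both viruses, at 2.60 and 1.55, whereas IL16 and IL27 differed by 0.65 and 0.55 in Ad-IκBαΔN. In an intron of IL18, an IL1 family cytokine, the signals were 4.88, 13.2 and 44.6 in Ad-GFP against 9.96, 13.4 and 15.3 in Ad-IκBαΔN, which made IL18 the second ligand gene with a region higher in both steps in Ad-GFP. IL23A, which encodes the p19 subunit of IL23, had the lowest signal with IL1B+Bud of the 42 regions in Ad-GFP, 15.6 after 3.98 with Bud, and its difference of 1.74 turned to -0.32 with quantile normalization.

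At other ligand genes, Bud alone already gave high GR signal. IL15 supports natural killer and memory T cells, and its region lay 70.9 kb upstream in intergenic sequence (chromosome 4, 141565494 to 141565893). The signals were 2.84, 138 and 184 in Ad-GFP against 7.50, 104 and 155 in Ad-IκBαΔN. Its difference for Bud, 5.18 in Ad-GFP and 3.63 in Ad-IκBαΔN, was the largest of the 42 regions in Ad-GFP. The size rests in part on the low untreated signal in Ad-GFP. Added IL1B made less than a 2-fold difference as deposited in both viruses, 0.41 and 0.56, and -1.16 and -0.02 with the steps divided out. At a region 30.3 kb upstream of IL12B, which encodes the p40 subunit of IL12 and IL23, signals were 3.81, 31.7 and 23.2 in Ad-GFP against 8.07, 24.9 and 23.0 in Ad-IκBαΔN.

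IL19 and IL24 are neighbouring genes of the IL10 family on chromosome 1, whose products act on epithelial cells through receptors that contain IL20RB. The lead region of IL19, 21.9 kb upstream (206748667 to 206749066), had signals of 3.71, 40.1 and 17.4 in Ad-GFP against 8.81, 35.3 and 62.7 in Ad-IκBαΔN. The 2 viruses thus had similar signal with Bud and parted when IL1B was added, with the lower value in Ad-GFP. The log2 differences for added IL1B were -1.16 and 0.81, and they kept opposite signs under the scalings tried. At IL24, 4.67 kb upstream, the signals were 3.75, 46.1 and 24.5 in Ad-GFP against 9.07, 45.8 and 47.2 in Ad-IκBαΔN, so that Bud signal was again alike and IL1B+Bud was lower in Ad-GFP by less than 2-fold, -0.88. IL17B, which encodes an IL17 family ligand, was linked to 3 regions 34.7 to 70.2 kb upstream that differed among themselves. The nearest had 4.89 with Bud and 53.1 with IL1B+Bud in Ad-GFP, while the farther ones had 26.7 and 37.7 with Bud and 30.7 and 27.4 with IL1B+Bud.

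**Figure D3:**
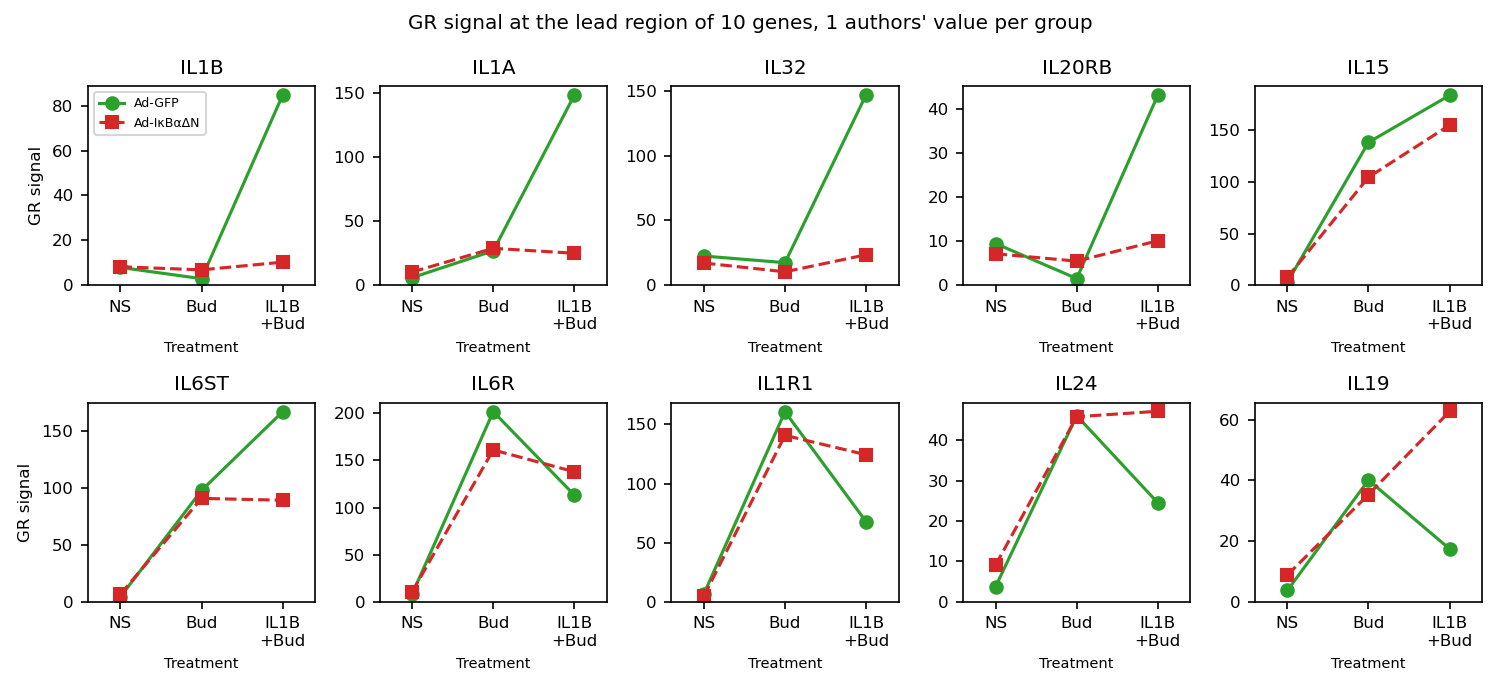
GR signal (linear scale, a separate axis per gene) at the lead region of 10 genes by treatment, with circles for Ad-GFP, squares for Ad-IκBαΔN and 1 deposited value per point. At IL1B, IL1A, IL32 and IL20RB the viruses part at IL1B+Bud with Ad-GFP above, and at IL1R1, IL24 and IL19 with Ad-GFP below.

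Among the receptors, the cluster of IL1 and IL18 receptor genes on chromosome 2 held 8 regions over 454 kb. IL1R1 encodes the receptor through which the added IL1B acts. At its lead region 15.9 kb upstream (102048452 to 102048851), the signals were 6.59, 161 and 67.7 for NS, Bud and IL1B+Bud in Ad-GFP, against 4.67, 141 and 124 in Ad-IκBαΔN. Bud signal was high in both viruses, and the value with IL1B+Bud was lower in Ad-GFP but close to Bud in Ad-IκBαΔN. The log2 difference for added IL1B was -1.24 in Ad-GFP, -1.19 at the highest under the scalings tried, the lowest of the 42 regions as deposited, and -0.18 in Ad-IκBαΔN. At the IL1R1 start itself, 0.24 kb upstream (102064109 to 102064508), the signals were 5.64, 54.9 and 35.6 in Ad-GFP against 7.11, 47.4 and 86.9 in Ad-IκBαΔN. With IL1B+Bud the region stood 1.26 higher (log2) in Ad-IκBαΔN than in Ad-GFP, and 1.18 at its lowest. The third IL1R1 region, in an intron, had 21.6 with Bud and 19.5 with IL1B+Bud in Ad-GFP, against 20.9 and 19.0 in Ad-IκBαΔN.

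The neighbours of IL1R1 differed from it. Upstream of IL1R2, the decoy receptor, the signals were 7.60, 12.5 and 22.6 in Ad-GFP against 9.38, 18.0 and 17.0 in Ad-IκBαΔN, and no step reached 2-fold, although the region held a GRE match with 1 mismatch. IL1RL1 encodes the receptor of IL33, and IL18R1 the binding chain for IL18. Their gene starts lie only 27 bases apart, so the assignment of regions to one or the other follows from which side they lie on. The region 58.2 kb upstream of IL1RL1 had 5.66, 3.85 and 70.7 in Ad-GFP against 9.92, 5.50 and 17.0 in Ad-IκBαΔN, and the region 37.5 kb upstream had 4.54, 36.9 and 40.5 against 6.02, 30.2 and 45.3. These neighbours thus showed the opposite patterns, the first high only with IL1B+Bud in Ad-GFP and the second high with Bud in both viruses. An intron of IL18R1 had 6.16, 3.85 and 61.5 against 8.67, 11.3 and 19.5. At IL18RAP, the accessory chain of the IL18 receptor, the signals were 7.46, 12.1 and 25.7 in Ad-GFP against 8.73, 16.3 and 37.7 in Ad-IκBαΔN. The IL18RAP differences for added IL1B were close, at 1.02 and 1.17, but the first turned to -0.46 with the steps divided out.

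The IL6 family receptors carried some of the strongest Bud signals. In an intron of IL6R, the chain that binds IL6 (chromosome 1, 154418256 to 154418655), the signals were 8.06, 202 and 113 in Ad-GFP against 10.5, 161 and 138 in Ad-IκBαΔN. This was the highest Bud signal of the 42 regions in both viruses, and IL1B+Bud was lower in each, by less than 2-fold as deposited (-0.83 and -0.22). IL6ST had 5 regions on chromosome 5. Its lead region, its midpoint 0.79 kb past the end of the gene (55934107 to 55934506), had 4.26, 97.6 and 167 in Ad-GFP against 6.49, 90.6 and 89.0 in Ad-IκBαΔN. At the IL6ST start, 0.20 kb upstream (55995019 to 55995418), the signals were 8.04, 55.7 and 129 against 12.9, 48.4 and 45.6, and 63.5 kb upstream they were 10.7, 75.0 and 117 against 7.69, 51.8 and 43.2. At all 3 of these regions Bud gave high signal in both viruses and IL1B+Bud stood higher than Bud in Ad-GFP only. The differences for added IL1B in Ad-GFP, 0.77, 1.20 and 0.64, turned to -0.80, -0.36 and -0.92 at the lowest among the scalings. At the remaining regions of IL6ST, 55.8 kb upstream and 69.2 kb from the start on the other side, Bud gave 32.0 and 30.4 and IL1B+Bud 28.6 and 21.8 in Ad-GFP. IL31RA, next to IL6ST, encodes a chain of the IL31 receptor. In an intron of IL31RA the signals were 9.68, 3.40 and 27.8 in Ad-GFP against 6.65, 3.18 and 14.9 in Ad-IκBαΔN. Its difference for added IL1B in Ad-IκBαΔN, 1.93, was the largest of the 42 regions there, and the single one that stayed past 2-fold under the scalings tried, at 1.29 or above. The size rests on a low Bud signal, the lowest of the 42 regions in Ad-IκBαΔN. Against untreated cells of that virus the IL31RA difference was 1.06.

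Receptor chains of several lymphocyte cytokines had low Bud signal in these epithelial cells. In an intron of IL2RA, the signals were 8.97, 2.79 and 42.3 in Ad-GFP against 4.62, 4.72 and 7.69 in Ad-IκBαΔN. Upstream of IL3RA, in sequence that chromosomes X and Y share, they were 12.1, 3.89 and 45.6 against 6.50, 4.96 and 11.7. Those of the lead region of IL7R, in an intron, were 6.78, 6.46 and 35.3 against 7.93, 9.68 and 15.9. In all of these, IL1B+Bud in Ad-GFP was the highest of the 6 values. A second intronic region of IL7R had 2.29, 5.32 and 20.8 against 8.87, 10.8 and 8.18, and its difference for added IL1B in Ad-GFP, 1.78, turned to -0.22 with quantile normalization. IL2RB, a chain shared by the IL2 and IL15 receptors, differed in that Bud gave 20.4 after 3.94 in Ad-GFP and 17.0 after 7.08 in Ad-IκBαΔN. With IL1B+Bud the IL2RB region had 33.1 and 14.2.

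IL20RB and IL22RA1 encode chains of epithelial receptors for IL19, IL20, IL22 and IL24. The region of IL20RB, in an intron of NCK1 13.5 kb upstream of the IL20RB start (chromosome 3, 136932500 to 136932899), had signals of 9.45, 1.51 and 43.2 in Ad-GFP against 7.14, 5.46 and 10.1 in Ad-IκBαΔN. Its Bud signal in Ad-GFP was the lowest of the 42 regions. The region was therefore lower with Bud than untreated, by -2.06, and the difference for added IL1B of 4.14 was the second largest. Against untreated cells IL1B+Bud was 2.08 higher. For IL22RA1, a region in untranslated sequence of IFNLR1 12.0 kb upstream of the IL22RA1 start (chromosome 1, 24154917 to 24155316) had 7.22, 3.12 and 56.5 against 9.14, 6.24 and 12.6. By contrast, a region in an intron of TTLL8, 10.2 kb upstream of IL17REL, a gene related to IL17 receptors, had 2.18, 28.0 and 27.5 in Ad-GFP against 6.05, 25.8 and 32.6 in Ad-IκBαΔN, high with Bud and with IL1B+Bud in both viruses.

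Ad-IκBαΔN was set against Ad-GFP within each treatment. In untreated cells, 5 regions were 2-fold higher in Ad-IκBαΔN and 1 lower, against 7.21% and 2.77% of all regions. With Bud, the regions of IL20RB, IL18R1 and IL1B (its lead) were 2-fold higher, by 1.36, 1.34 and 1.01, and none was lower, against 4.02% and 0.0186%. With IL1B+Bud, 2 were higher and 22 lower, against 5.97% and 46.5%. The median difference there was -1.09 over the 42 regions and -0.85 over all. With the steps divided out, 10 were higher and 7 lower, against 25.7% and 22.4% of all regions. The 22 were led by the lead regions of IL1B, IL32, IL1A and IL2RA, at -2.93, -2.60, -2.53 and -2.32. The 2 higher ones were IL19, at 1.79, and the region at the IL1R1 start. These directions kept past 2-fold under each scaling at 7 of the 22 and at both of the higher ones. The 7 were the IL1B, IL32, IL16, IL22RA1 and IL2RA lead regions and the IL1A regions 9.92 kb and 15.0 kb upstream. How many of all regions kept their direction in this way was not counted.

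Within Ad-IκBαΔN, Bud against NS gave 19 regions 2-fold higher and 0 lower, against 59.3% and 1.06% of all regions, and 4 and 21, against 10.2% and 37.1%, when centred on the unchanged class. The 7 regions that were lower with Bud in Ad-GFP (the lead regions of IL20RB, IL3RA, IL7, IL2RA, IL31RA and IL1B and the IL1A region 19.9 kb upstream) had differences of -0.87 to 0.03 in Ad-IκBαΔN. Adding IL1B there gave 8 regions 2-fold higher and 0 lower, against 9.65% and 0.94%. They were the lead regions of IL31RA, IL7, IL18RAP, IL32 and IL3RA and a second region each of IL1RL1, IL1B and IL1A. Except at IL18RAP, the Bud signal of these regions in Ad-IκBαΔN was below untreated, by -0.33 to -0.87, which raises the difference for added IL1B. Against untreated cells of that virus, IL1B+Bud differed by 1.99 at IL18RAP and 1.06 at IL31RA. At the others it differed by 0.43 to 0.90, less than 2-fold. All 8 were also 2-fold higher with added IL1B in Ad-GFP. This overlap was not counted over all regions. The response to added IL1B was smaller in Ad-IκBαΔN than in Ad-GFP by at least 2-fold at 20 of the 42 regions and larger at 3, against 47.4% and 7.98% of all regions. The 3 were IL19 and the IL1R1 regions 15.9 kb and 0.24 kb upstream. Its median was -0.91 over the 42 regions and -0.84 over all. With the steps divided out the response was smaller at 15 and larger at 12, against 30.6% and 28.5% of all regions.

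**Figure D4:**
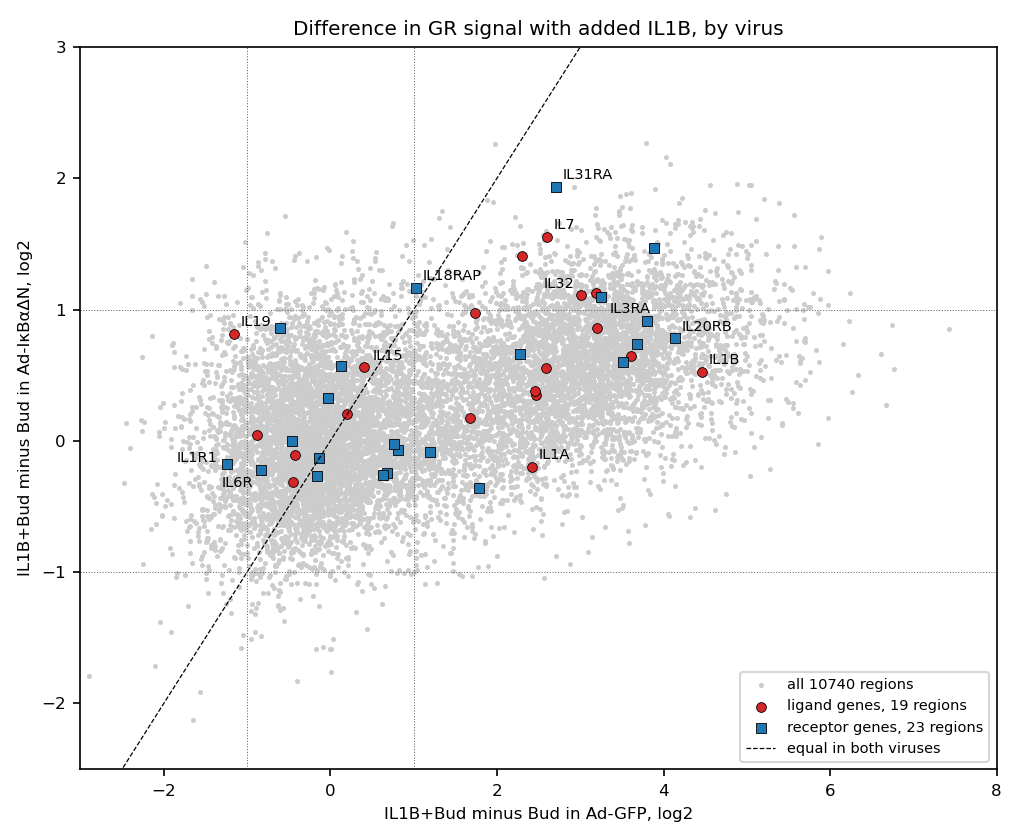
Added IL1B, as the log2 difference of IL1B+Bud from Bud, in Ad-GFP (horizontal) and Ad-IκBαΔN (vertical) at all regions (grey), ligand gene regions (red circles) and receptor gene regions (blue squares), with dotted lines at 2-fold and a dashed line where both viruses are equal. IL1B stands at 4.46 and 0.52, IL31RA at 2.71 and 1.93, and IL19, at -1.16 and 0.81, lies above the dashed line.

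Ligand and receptor genes overlapped widely. Added IL1B in Ad-GFP gave a median of 2.43 over 19 ligand regions, with 13 higher and 1 lower, and of 0.81 over 23 receptor regions, with 11 higher and 1 lower. Over all regions the median was 0.92, with 48.9% higher and 6.07% lower, so the receptor regions, 47.8% of them higher, were near that share. For Bud against NS in Ad-GFP the medians were -0.01 and 1.19, against 1.37 over all regions. IL1R1 and IL6ST account for 8 of the 23 receptor regions, which share 2 loci and are not independent. The ligand regions are not independent either. IL1A and IL1B account for 5 of the 19, within 20.5 kb and all among the 13 higher, and IL32 for 2 more of the 13. The ligand median without these was not computed.

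The authors placed 22 of the 42 regions in their increasing class, 11 in the unchanged and 9 in the decreasing class, which is 52.4%, 26.2% and 21.4% against 40.5%, 31.8% and 27.8% of all regions. The labels and headers do not say how a region was given its class. Of the 22 increasing regions 20 were 2-fold higher with added IL1B in Ad-GFP, the exceptions being IL1R2 and IL2RB, and 93.3% of all increasing regions were. Of the 11 unchanged regions 3 were higher in that comparison, at IL17B, IL1B and IL7R, and 1 was lower, the IL1R1 lead region. Of all 3411 unchanged regions 28.8% were higher and 117 lower. Of the 9 decreasing regions 1 was higher, against 7.27% of all decreasing regions. This was the IL1A region 19.9 kb upstream, which in Ad-GFP had 3.26 with Bud against 37.8 with IL1B+Bud. Intergenic sequence held 24 regions, introns 15 and untranslated sequence 3. Of the regions, 3 (7.14%) lay within 1 kb of the linked gene start, against 3.76% of all regions. The rule takes only regions within 100 kb of a start, while all regions include those farther away, so these shares are unlike.

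A κB match was found in 10 of the 42 regions, 23.8% against 21.3% of all regions. These were both IL1B regions and the lead regions of IL16, IL20RB, IL22RA1, IL31RA, IL32, IL3RA, IL7 and IL7R. All 10 were among the 21 regions that were higher only with added IL1B in Ad-GFP, a share of 47.6%, and none was among the 17 higher only with Bud. Over all regions the same classes had κB matches at 45.1% and 2.91%, so the interleukin regions were close to the rest. GRE matches were found in 6 regions, 14.3% against 14.7%, at IL17B, IL18RAP, IL19, IL27, IL1R2 and the IL1R1 start. Of the 17 regions higher only with Bud, 3 had a GRE match, 17.6% against 23.2% of all such regions. The 4 lead regions with the highest Bud signals in Ad-GFP, those of IL6R, IL1R1, IL15 and IL6ST, had no GRE match. They are among these 17, and most regions of this class over the whole set had none either. AP-1 matches were found in 13 regions, 31.0% against 22.8%, including 3 matches in the IL6R region and 1 each in the lead regions of IL1R1 and IL15. A match describes the letters of the reference and is no evidence of binding.

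The members farthest from their gene, IL15 at 70.9 kb, IL17B at 70.2 kb and IL6ST at 69.2 kb, lay well inside the limit of 100 kb. The nearest region outside it was linked to IL12B at 251 kb, with signals of 10.00, 19.8 and 30.8 in Ad-GFP against 4.86, 19.9 and 17.7 in Ad-IκBαΔN. The nearest gene start need not be the gene a region acts on, and no expression was measured here.

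Genes of the same pathways under other names, from a list chosen with earlier results of these data known, had 75 regions at 30 of 59 genes. With added IL1B in Ad-GFP 55 were 2-fold higher and 2 lower, with a median of 2.68, against 48.9%, 6.07% and 0.92 over all regions. With the steps divided out the counts were 38 and 18, against 30.3% and 43.7%. In Ad-IκBαΔN 7 were higher and 0 lower, close to the all-region share of 9.65%, with a median of 0.32. Partners of the genes above were among them. EBI3, which pairs with IL27, had 13.6 with Bud and 387 with IL1B+Bud in Ad-GFP at its start, 0.26 kb away, and 9.24 and 19.8 in Ad-IκBαΔN. OSMR, which pairs with IL31RA, had 7.85 and 86.0 against 9.59 and 16.5. LIFR, a receptor that pairs with IL6ST, had lower values with IL1B+Bud at all 4 of its regions in Ad-GFP, as far as from 106 to 31.0 against 88.8 and 129 in Ad-IκBαΔN at the region 58.8 kb from its start. By subset, against the same 48.9% and 6.07% of all regions, 13 of 14 regions of other ligands were higher with added IL1B in Ad-GFP. None of those was lower. Of the receptors 2 of 6 were higher and 1 lower, with a median of -0.49. Most of the 14 ligand regions were linked to LIF and 4 of the 6 receptor regions to LIFR, so they are not independent. Of the adaptors and kinases of IL1 signalling 17 of 22 regions were higher with added IL1B in Ad-GFP and none lower. Many of the higher ones were at IRAK2. Of the JAK and STAT genes 14 of 19 were higher and none lower, and of the inhibitors 9 of 14 with 1 lower. Among the inhibitors, SOCS3 regions had differences of 2.44 to 3.59. PIAS1 went mostly the other way, with -0.73, -0.58, -1.65 and 1.80, and held the lower region. The counts by subset were not recomputed under other scalings.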

How the data were processed

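GR ChIP-seq values of 6 groups were used, with 2 libraries per group per the labels. The authors deposited 1 log2 binding intensity per region and group, which was used unchanged. Its name Ad-IκBα was taken to mean Ad-IκBαΔN of the labels. Per the submitters' processing notes, the build was GRCh38 (hg38) and the tools included DiffBind 3.2, MACS2 2.2.7.1, Bowtie2 2.4.4, SAMtools, FastQC 0.10.1 and bcl2fastq. Which tool made the intensities, and how libraries were combined and scaled, is not stated in the labels or headers. The depth of the libraries is unknown, and the precision of a value cannot be given. The planned use of values per library was not possible.

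Midpoints were linked to gene starts of protein-coding genes in GENCODE 44 within 100 kb. Differences were computed over all 10740 regions. Steps in (2 to the power of the value, minus 1) times 400 bp were searched among 1, 1.5, 2 and 3. Every member gene was named, by its lead region. The printed promoter regions were added to the planned sequences after the values were seen. Members, lists, comparisons and motifs were chosen with earlier results of these data known. Linking, step search and counting were tested on simulated data. Alternatives were 4 other scalings, a pseudocount of 5, a filter on the lowest 25% of regions and a limit of 50 kb. Python 3.11.15, numpy 2.4.6, pandas 2.3.3 and matplotlib 3.10.9 were used.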

Additional observations from a re-analysis of the deposited data

Results flagged for a closer look

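At 4 regions the difference for added IL1B had opposite signs in the 2 viruses and was at least 2-fold in Ad-GFP. The share of all regions that met this rule was not counted. For added IL1B in Ad-IκBαΔN, 13 of the 42 regions and 3485 of all 10740 lay below 0. With 1 value per group, the difference between viruses was not tested. Given as Ad-GFP first and Ad-IκBαΔN second, the IL19 region had -1.16 and 0.81, and the IL1A lead region 2.43 and -0.20, both opposite in all 6 scalings and pseudocounts including the values as deposited. The region at the IL6ST start had 1.20 and -0.08, and the second IL7R region 1.78 and -0.36, each opposite in 5 of the 6. The IL6ST value of -0.08 lies close to 0.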

How the results depend on the processing

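No paired analysis was possible because the table holds 1 value per group and no library. For the same reason no library could be left out. Counts are given as higher and lower regions of the 42, by the setting that moved them over 1.5 times. Bud against NS in Ad-GFP was 20 and 7 as deposited, and 12 and 19 with the groups re-centred to a common median. Quantile normalization gave 11 and 12, and centring on the unchanged class 8 and 21. In that order, all regions had 57.9% and 8.14%, 24.3% and 32.6%, 22% and 22.5%, and 14.4% and 40.7%. With a pseudocount of 5 the lower count was 1, against 2.06% of all regions. It was 0 on dropping the weakest 25% of regions by mean, which left 26 members, against 2.56% of all regions left. With a 50 kb limit, which left 31 members, 12 were higher, against 57.9% of all regions. In Ad-IκBαΔN, 19 and 0 became 6 and 19, 8 and 15, and 4 and 21 under the same 3 scalings, and 11 higher at 50 kb. All regions under these scalings went from 59.3% and 1.06% to 18.9% and 27.2%, 21.5% and 21.8%, and 10.2% and 37.1%. Added IL1B in Ad-GFP, 24 and 2, became 14 and 14 with the steps divided out and 13 and 11 with quantile normalization. All regions went from 48.9% and 6.07% to 30.3% and 43.7%, and 25.5% and 26.9%. Of the 42, 11 were lower when re-centred and 5 lower when centred on the unchanged class, against 32.1% and 16.3% of all regions. Without the lowest regions 8 were higher, against 34.7%. For added IL1B in Ad-IκBαΔN, 8 higher became 1 with quantile normalization and 2 with the steps divided out. It became 5 with a pseudocount of 5 and 2 without the lowest regions. In that order, 0.885%, 0.875%, 2.57% and 5.29% of all regions were higher, against 9.65% as deposited. Ad-IκBαΔN against Ad-GFP with IL1B+Bud, 2 and 22, became 10 and 9 re-centred and 9 and 10 with quantile normalization. With the steps divided out the counts were 10 and 7. All regions went from 5.97% and 46.5% to 25.4% and 24.4%, 24.5% and 24.3%, and 25.7% and 22.4%. In this comparison 5 were higher when centred on the unchanged class, against 14.3% of all regions. Without the lowest regions 9 were lower, against 34.2%. Dividing the steps out was added for 3 further counts after the data were seen. IL1B+Bud against NS in Ad-GFP went from 40 higher to 19, and all regions from 93.7% to 48.7%. Regions with a larger or smaller gain from IL1B in Ad-IκBαΔN than in Ad-GFP went from 3 and 20 to 12 and 15. The all-region shares went from 7.98% and 47.4% to 28.5% and 30.6%. Other pathway regions with added IL1B in Ad-GFP went from 55 and 2 to 38 and 18, beside the all-region shares given above. Re-centring removes any general gain with Bud.

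Of the 42 regions, 11 stayed 2-fold higher and 2 lower for added IL1B in Ad-GFP under each scaling and the pseudocount of 5. For Bud in Ad-GFP, 8 stayed higher and 1 lower. Such counts were not made over all regions. Some 2-fold differences at lead regions changed sign. For Bud in Ad-GFP, IL17B had -0.079 and IL18 -0.65 centred on the unchanged class, and IL18 -0.13 re-centred. For Bud in Ad-IκBαΔN, centring on the unchanged class gave IL12B -0.33, IL17B -0.63, IL1A -0.44 and IL2RB -0.69, re-centring gave IL17B -0.15 and IL2RB -0.20, and quantile normalization gave IL17B -1.69 and IL1A -0.93. For added IL1B in Ad-GFP, IL18RAP had -0.017 re-centred, -0.52 with quantile normalization and -0.46 with the steps divided out, and IL23A had -0.32 with quantile normalization. The cause was not tested. Depth limits cannot be given, since the depth is unknown.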
